A study of Mus musculus with 12 samples.

Results

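Collagen chains are the gene products that wind in threes into the triple helices of the extracellular matrix. All 44 gene symbols of the form Col, number, a, number were taken from the 23238 different symbols in the deposited values. Of these, 28 were abundant enough to be tested, with a mean log2 value over the 12 libraries in the upper 60% of genes (13943 genes, lowest mean 0.729). The RNA came from kidneys of C57BL/6 mice and was read from the 3′ ends of polyadenylated transcripts with the QuantSeq kit. Diseased mice either had access to food for part of each day, the group of chronic kidney disease with time restricted feeding (CKD TRF), or had the disease alone (CKD), and both were set beside controls (Control), with 4 libraries each. How the disease was induced, the feeding hours, the age and sex of the mice and whether each library came from its own animal are not given in the sources used here, so p-values measure only the spread between libraries.

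Collagens are sorted by what they build. Fibrillar chains form the load-bearing fibrils of the interstitium, and in a scarring kidney these are known as the bulk of the deposited matrix. Type IV chains form the sheet of basement membranes: Col4a1 and Col4a2 chains build the network found around tubules and vessels, while Col4a3, Col4a4 and Col4a5 chains build the network of the mature glomerular filter, and Col4a6 pairs with Col4a5 in Bowman's capsule. Type VI chains form beaded filaments near cells, type VIII chains form lattices under endothelium, and FACIT chains sit on the surface of fibrils without forming fibrils themselves. Multiplexins are chains of the basement membrane zone that release fragments related to endostatin.

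Levels are scaled reads, the deposited log2 values taken back to the linear scale less the added 1. A scaled read is close in size to a CPM, and 3 reads, the most that a 0 allows, were worth at most 0.306 scaled reads. Reads come from transcript ends, so levels were not divided by gene length and differences in level between chains are not read as differences in transcript number. A change is the difference between 2 group means of the log2 values, given with the SE that limma fitted (n = 4 in each group). A chain was called at a Benjamini-Hochberg adjusted p under 0.05 over all 13943 tested genes. Recovered depth was 14146135 to 17209865 reads in CKD TRF, 14512498 to 16857925 in CKD and 10989919 to 12810751 in Control. The scaled reads of a library summed to 987841 to 1025834 in CKD TRF, 941189 to 978419 in CKD and 1076773 to 1180101 in Control, so the scaling already set diseased libraries lower than equal sums would.

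The start regions of 4 chains are shown as background, and no result on levels rests on these sequences. Col1a2 and Col3a1 encode interstitial fibril chains that rose, and Col4a1 and Col4a2 are neighbours whose estimated changes differed in size. Each is the RefSeq window of 300 bases on GRCm38.p6, 250 before to 50 after the annotated start, read 5′ to 3′ on the gene's strand. Capitals mark CCAAT or its reverse complement ATTGG.
Col1a2: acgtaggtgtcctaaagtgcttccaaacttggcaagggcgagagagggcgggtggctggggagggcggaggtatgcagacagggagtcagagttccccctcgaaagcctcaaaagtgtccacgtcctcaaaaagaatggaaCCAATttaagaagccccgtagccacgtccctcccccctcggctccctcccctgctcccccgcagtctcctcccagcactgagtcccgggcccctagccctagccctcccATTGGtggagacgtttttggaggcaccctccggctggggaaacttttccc
Col3a1: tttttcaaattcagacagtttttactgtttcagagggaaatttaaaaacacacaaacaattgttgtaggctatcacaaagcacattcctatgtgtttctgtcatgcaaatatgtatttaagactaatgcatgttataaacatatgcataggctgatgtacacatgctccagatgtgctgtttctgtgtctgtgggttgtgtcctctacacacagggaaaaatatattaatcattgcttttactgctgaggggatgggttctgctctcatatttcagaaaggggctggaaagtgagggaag
Col4a1: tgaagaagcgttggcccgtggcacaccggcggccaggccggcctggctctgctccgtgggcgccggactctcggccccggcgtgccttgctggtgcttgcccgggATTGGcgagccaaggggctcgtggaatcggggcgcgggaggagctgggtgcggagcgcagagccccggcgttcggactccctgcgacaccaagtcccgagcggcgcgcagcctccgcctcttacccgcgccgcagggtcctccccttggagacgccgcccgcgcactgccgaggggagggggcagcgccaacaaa
Col4a2: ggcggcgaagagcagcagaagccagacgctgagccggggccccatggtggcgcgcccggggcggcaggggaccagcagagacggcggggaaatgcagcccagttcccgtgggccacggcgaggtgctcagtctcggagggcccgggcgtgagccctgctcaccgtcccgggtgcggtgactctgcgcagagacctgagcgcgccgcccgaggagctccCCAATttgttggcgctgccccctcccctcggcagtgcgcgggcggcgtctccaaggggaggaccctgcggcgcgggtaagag
The windows lie at chr6:4505368-4505667 (plus strand) for Col1a2, chr1:45311288-45311587 (plus) for Col3a1, chr8:11312777-11313076 (minus) for Col4a1 and chr8:11312555-11312854 (plus) for Col4a2. The last 2 share 78 bases on opposite strands, since their annotated starts lie 21 bases apart. For Col1a2 the RefSeq start, at 4505618, lies inside the gene as GENCODE places it, from 4504814 on. A match was counted on either strand. CCAAT was in 13 of the 38 windows of the 35 matched members (34.2%), against 37.4% of 32851 windows of all genes. GGGCGG was in 23 of 38 (60.5%), against 35.7% of all windows, and TATAAA was in 5 of 38 (13.2%), against 13.6%. Of the windows printed, Col3a1 alone held TATAAA and alone held no GGGCGG. These are matches of letters and were not tested as sites.

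CKD was first set against Control, to see which collagen chains differ in diseased kidneys. Of 28 tested chains 20 rose, against 23.6% of all tested genes, and 1 fell, against 21.8%. The chain that fell was Col4a3, and the 7 not called were Col4a4, Col4a5, Col5a3, Col6a6, Col13a1, Col19a1 and Col23a1. The median change of the tested chains was 1.19, beside 0.02 over all tested genes. Libraries of CKD lay wholly above Control for 20 chains, against 20.3% of genes, and wholly below for 1, against 19.2%. Col4a6, Col6a5 and Col8a2, among the 20 that rose, had every Control log2 value under the filter's lowest mean of 0.729. They passed that filter only through the diseased libraries, so their place in these counts is no support. In bulk tissue, fewer cells of a type and less RNA per cell cannot be told apart.

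Summed over all 44 chains, scaled reads averaged 1766 ± 128 in CKD and 684 ± 69.8 in Control (SD, n = 4 each), a ratio of means of 2.58. The makeup differed as well. Fibrillar chains held 47.6% ± 0.86 of the collagen reads in CKD and 25.2% ± 2.06 in Control, while basement membrane chains held 29.0% ± 1.15 in CKD and 51.9% ± 2.42 in Control (SD, n = 4 each). Fibrillar sums were 842 ± 72.5 in CKD and 172 ± 10.6 in Control, a ratio of 4.90, whereas basement membrane sums were 512 ± 30.5 in CKD and 356 ± 49.8 in Control, a ratio of 1.44. The groups did not overlap in either share. The stacked sums by library show the interstitial classes making up most of the added height.

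**Figure D1:**
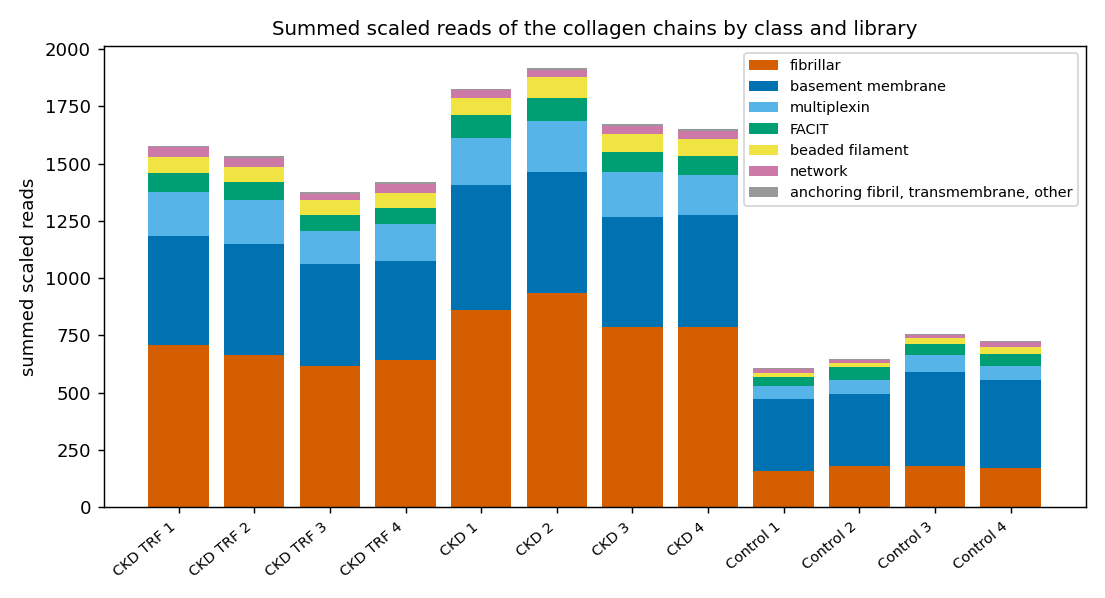
Summed scaled reads of the 44 collagen chains by class in each of the 12 libraries, CKD TRF on the left, then CKD and Control. Fibrillar chains take up 44.6% of the bars on average in CKD TRF, 47.6% in CKD and 25.2% in Control.

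Among fibrillar chains, 6 of 7 tested rose in CKD, against 23.6% of all tested genes, with a median change of 1.68. Col1a1, the first chain of type I collagen, stood at 120.2, 143, 94.9 and 95.8 scaled reads in the CKD libraries and at 14.6, 11.9, 12.8 and 11.7 in Control. Every CKD library was several times above every Control library, and the change was 3.04 ± 0.13 (limma adjusted p = 8.5e-13). Col3a1, the chain of type III collagen that joins type I in pliable fibrils, stood at 238, 254, 231 and 217 in CKD and at 28.2, 23.9, 29.5 and 29.2 in Control. Its libraries were as far apart as those of Col1a1, and it also rose by 3.04 ± 0.12 (limma adjusted p = 8.5e-13). Col1a2, the partner of Col1a1 in the type I trimer, stood at 422, 461, 385 and 396 in CKD and at 84.9, 112, 98.3 and 95.5 in Control, and rose by 2.08 ± 0.10 (limma adjusted p = 4.4e-12).

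The balance of the type I partners was compared as well. The log2 ratio of Col1a1 to Col1a2 averaged -1.88 ± 0.17 in CKD and -2.84 ± 0.28 in Control (SD, n = 4 each), a difference of 0.96 ± 0.16 with no overlap. The exact permutation test, two-sided, gave p = 0.0286, the smallest that 4 against 4 allows. After adjustment over the 45 tests on 15 ratios it was 0.0918, so no ratio was called. A ratio could pass the threshold only if most of the 45 tests reached this smallest p, so the lack of a call carries little weight. The ratio of Col3a1 to Col1a1 differed by -0.00 ± 0.13 between CKD and Control (exact permutation p = 1).

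Type V collagen is a minor fibrillar collagen that lies in the core of type I fibrils and limits their width. Col5a1 averaged 15.9 ± 1.14 in CKD and 5.15 ± 0.774 in Control, and Col5a2 averaged 31.0 ± 2.74 in CKD and 9.08 ± 1.94 in Control (SD, n = 4 each). They rose by 1.46 ± 0.17 and 1.68 ± 0.16 (limma adjusted p = 1.1e-06 and 7.0e-08). Col5a3, the other chain of type V, averaged 2.77 ± 0.607 in CKD and 1.43 ± 0.312 in Control. Its change of 0.63 ± 0.26 missed the threshold (limma adjusted p = 0.0546), though the libraries did not overlap, and it passed under 11 alternatives. Col27a1, a fibrillar chain best known from cartilage, rose by 0.56 ± 0.16, the smallest rise of the class (limma adjusted p = 0.00692). Col5a2 lies tail to tail with Col3a1 on chromosome 1, 24614 bases away.

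Markers of fibroblasts and mural cells, a list without collagens, moved alongside: 8 of 9 rose in CKD, against 23.6% of all tested genes, and Postn, a matrix protein of activated fibroblasts, was not called. Their summed scaled reads were 600 to 676 in CKD TRF, 695 to 798 in CKD and 171 to 191 in Control. Their part in the fibrillar change was not tested.

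**Figure D2:**
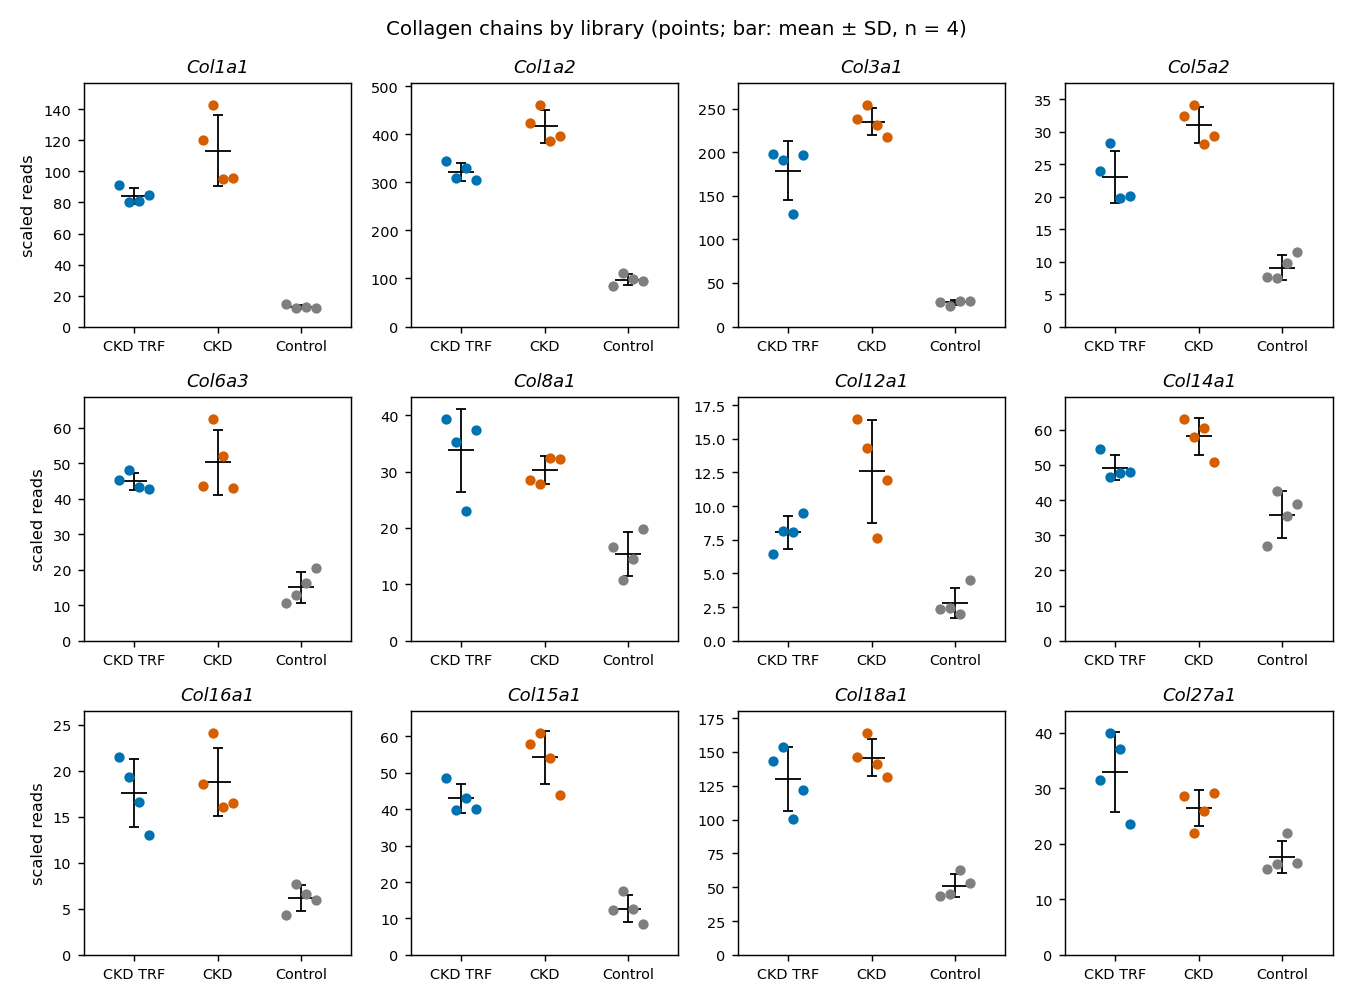
Scaled reads of 12 collagen chains in each library (points), with the mean and SD of each group (n = 4), CKD TRF left, CKD in the middle and Control right. CKD and Control do not overlap in any panel; for Col1a1, Col1a2 and Col3a1 the CKD TRF libraries lie between them.

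Type VI chains of the beaded filaments moved close to the fibrillar group, and 4 of 5 tested rose, against 23.6% of all tested genes (median change 1.70). Col6a1 stood at 11.1, 14.3, 16.1 and 15.5 scaled reads in CKD and at 4.39, 3.23, 3.74 and 2.56 in Control. Col6a2 stood at 11.9, 12.3, 11.3 and 11.3 in CKD and at 1.53, 2.03, 2.72 and 3.47 in Control. Col6a3, the long chain that completes the common type VI trimer with them, stood at 43.7, 62.5, 52.1 and 43.0 in CKD and at 10.5, 13.0, 16.3 and 20.5 in Control. All 3 parted the groups without overlap, with changes of 1.77 ± 0.20 for Col6a1, 1.92 ± 0.19 for Col6a2 and 1.70 ± 0.16 for Col6a3 (limma adjusted p = 9.3e-07, 1.5e-07 and 9.7e-08). Neither the Col6a1 to Col6a2 ratio (-0.15 ± 0.32) nor the Col6a3 to Col6a1 ratio (-0.07 ± 0.34) differed beyond the spread between libraries (exact permutation p = 0.686 and 0.886).

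The chains that can take the place of Col6a3 behaved unevenly. Col6a5 stood at 2.85, 1.57, 1.28 and 0.852 in CKD and was at 0 in 3 Control libraries and at 0.0913, a single read, in the other. It was called with a change of 1.31 ± 0.26 (limma adjusted p = 4.5e-04), a size that rests on the added 1. Col6a5 passed the filter only through the diseased libraries, so a rise was built into its being tested. Col6a6 averaged 1.12 ± 0.794 in CKD and 0.896 ± 0.678 in Control and was not called (0.17 ± 0.32, limma adjusted p = 0.695). These neighbours lie on chromosome 9, on the same strand, 27917 bases apart.

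The 6 type IV chains divided. The first pair, Col4a1 and Col4a2, which wind into the same trimers and are read in opposite directions from abutting starts on chromosome 8, both rose. Col4a1 stood at 257, 249, 228 and 231 scaled reads in CKD and at 98.5, 94.2, 131 and 138 in Control, a rise of 1.07 ± 0.12 (limma adjusted p = 1.1e-06). Col4a2 stood at 74.0, 75.5, 69.2 and 74.6 in CKD and at 51.8, 58.1, 68.7 and 61.0 in Control, a rise of 0.29 ± 0.10 (limma adjusted p = 0.0219). Both parted the groups, Col4a1 by a wide gap and Col4a2 by less than 1 scaled read. The log2 ratio of Col4a1 to Col4a2 averaged 1.70 ± 0.07 in CKD and 0.92 ± 0.20 in Control (SD, n = 4 each; difference 0.78 ± 0.10, exact permutation p = 0.0286, adjusted 0.0918).

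The second pair is Col4a3 and Col4a4, 71 bases apart and head to head on chromosome 1. Col4a3 stood at 30.4, 23.8, 22.9 and 23.0 in CKD and at 43.7, 32.2, 38.9 and 34.1 in Control, and fell by 0.55 ± 0.13 on the log2 scale (limma adjusted p = 0.00212). Col4a4 stood at 177, 161, 151 and 147 in CKD and at 109, 121, 163 and 145 in Control. Its groups overlapped and its change of 0.26 ± 0.12 was not called (limma adjusted p = 0.0865). The log2 ratio of Col4a3 to Col4a4 averaged -2.63 ± 0.09 in CKD and -1.82 ± 0.36 in Control (SD, n = 4 each; difference -0.81 ± 0.18, exact permutation p = 0.0286, adjusted 0.0918).

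The third pair, Col4a6 and Col4a5, lies head to head on the X chromosome, 1308 bases apart. Col4a5 stood at 8.75, 14.1, 10.3 and 12.4 in CKD and at 10.5, 8.84, 8.42 and 6.57 in Control, with overlap and no call (0.36 ± 0.18, limma adjusted p = 0.111). Col4a6 stood at 0.648, 1.85, 1.22 and 1.51 in CKD and at 0.307, 0, 0.255 and 0.639 in Control. Its libraries did not overlap by a margin under 1 read, and it rose by 0.82 ± 0.25 (limma adjusted p = 0.0114). Of the 3 chains of the mature glomerular network, Col4a3 fell and the other 2 were not called, whereas both chains of the general network rose. This split depended on the scaling: with equal sums Col4a4 (0.48 ± 0.13) and Col4a5 (0.57 ± 0.18) were called higher (limma adjusted p = 0.00465 and 0.0145) and Col4a3 was not called, and voom gave the same calls. Col4a4 was also called higher under quantile normalization and without Control 3, and Col4a5 with sample weights.

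The calls on Col4a2, Col4a3 and Col4a6 were lost without the 5 libraries with fat markers described further on (0.26 ± 0.15, -0.47 ± 0.18 and 0.58 ± 0.32, limma adjusted p = 0.215, 0.0682 and 0.197). Col4a3 also lost its call on scaling to equal sums (-0.33 ± 0.14, 0.0573), and Col4a6 under quantile normalization (0.41 ± 0.24, 0.181). Col4a2 lost its call without Control 1, without CKD 2, with median centring (0.19 ± 0.10, 0.130) and with the fat covariate alone (0.30 ± 0.13, 0.0797), but rose by 0.52 ± 0.11 with equal sums and with voom (limma adjusted p = 5.8e-04 and 7.0e-04). Col4a6 also lost its call with the fat covariate alone (0.63 ± 0.31, 0.123), and all 3 did with the fat and urothelium covariates. Summed podocyte markers, from the cells that make the mature glomerular network, were 294 to 366 scaled reads in CKD TRF, 279 to 328 in CKD and 208 to 266 in Control, with 3 of 5 called higher in both comparisons with Control, against 23.6% of all tested genes in CKD and 19.5% in CKD TRF. Endothelial markers summed to 233 to 289 in CKD TRF, 198 to 259 in CKD and 148 to 228 in Control, with 2 of 5 called higher in CKD and 3 of 5 in CKD TRF, against the same shares. Their part in the type IV values was not tested.

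**Figure D3:**
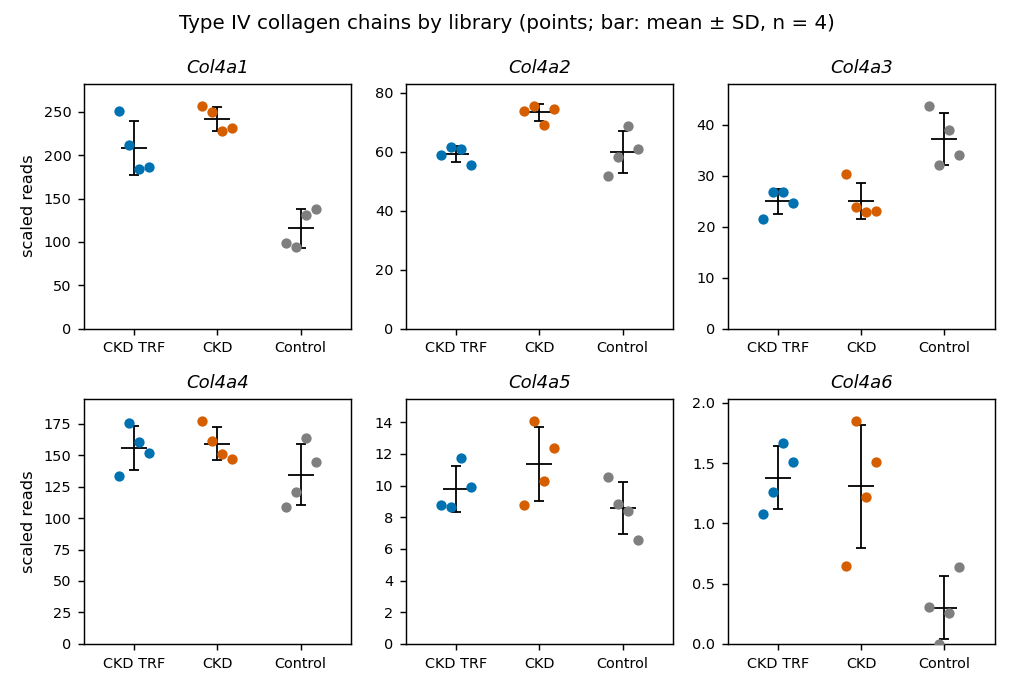
Scaled reads of the 6 type IV chains in each library (points), with the mean and SD of each group (n = 4), CKD TRF left, CKD in the middle and Control right. Col4a1 is higher in both diseased groups, Col4a3 is lower in both, and the CKD TRF libraries of Col4a2 lie in the range of Control.

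Both tested network chains rose, against 23.6% of all tested genes, by a median of 1.15. Col8a1, a lattice chain under endothelium, stood at 28.5, 27.8, 32.5 and 32.3 in CKD and at 16.5, 10.7, 14.5 and 19.8 in Control, without overlap (0.96 ± 0.17, limma adjusted p = 1.7e-04). Col8a2, its homologue, stood at 5.58, 3.14, 0.464 and 2.89 in CKD and at 0.510, 0, 0.595 and 0.548 in Control. It was called (1.34 ± 0.34, limma adjusted p = 0.00288) although CKD 3 lay within the Control range. The third network chain, Col10a1 of hypertrophic cartilage, was too low to be tested.

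Of the 4 FACIT chains tested 3 rose, against 23.6% of all tested genes, with a median change of 1.09. Col12a1, a long fibril-surface chain of tissues under load, stood at 16.5, 14.3, 7.60 and 11.9 in CKD and at 2.35, 2.39, 1.96 and 4.48 in Control. Col14a1, its close relative, stood at 63.1, 58.1, 60.5 and 50.9 in CKD and at 26.9, 42.5, 35.5 and 38.8 in Control. Col16a1, a chain found at fibrils and at cell contacts, stood at 18.5, 24.1, 16.0 and 16.5 in CKD and at 4.29, 7.65, 6.63 and 5.94 in Control. None of the 3 overlapped, and the rise was 1.83 ± 0.23 for Col12a1, 0.70 ± 0.13 for Col14a1 and 1.48 ± 0.19 for Col16a1 (limma adjusted p = 3.2e-06, 1.8e-04 and 3.5e-06). The log2 ratio of Col12a1 to Col14a1 averaged -2.17 ± 0.45 in CKD and -3.31 ± 0.41 in Control (SD, n = 4 each; difference 1.14 ± 0.30, exact permutation p = 0.0286, adjusted 0.0918). Col19a1, the fourth, averaged 2.53 ± 0.799 in CKD and 3.50 ± 1.46 in Control and was not called (-0.32 ± 0.29, limma adjusted p = 0.384).

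Both multiplexins rose. Col15a1, a chain that anchors basement membranes to the interstitium, stood at 58.0, 60.9, 53.9 and 44.0 in CKD and at 12.4, 17.4, 12.6 and 8.49 in Control (2.04 ± 0.16, limma adjusted p = 7.8e-09). Col18a1, the source of endostatin, stood at 146, 164, 141 and 131 in CKD and at 43.8, 45.0, 62.4 and 53.3 in Control (1.50 ± 0.13, limma adjusted p = 3.2e-08). Neither overlapped. The last 1000 bases of Col18a1 overlap Slc19a1 on the other strand, and no source used here gives the strand setting of the counting, so reads of the pair may be shared. Slc19a1 itself ran from 91.5 to 116 in CKD TRF, 86.8 to 96.3 in CKD and 51.4 to 76.0 in Control. The same limit holds for Col4a1 and Col4a3, whose ends overlap Gm15418 and C430014B12Rik on the other strand. Neither of these is among the deposited symbols.

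The 2 transmembrane chains tested were not called. Col13a1, found at cell contacts, stood at 1.04, 1.85, 2.50 and 1.64 in CKD and at 1.53, 3.04, 0.595 and 2.92 in Control, with full overlap (-0.06 ± 0.31, limma adjusted p = 0.886). Col23a1 stood at 3.18, 4.31, 2.44 and 7.02 in CKD and at 3.16, 0.921, 3.06 and 2.56 in Control (0.60 ± 0.28, limma adjusted p = 0.0878). CKD 4 was the high library of that group.

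**Figure D4:**
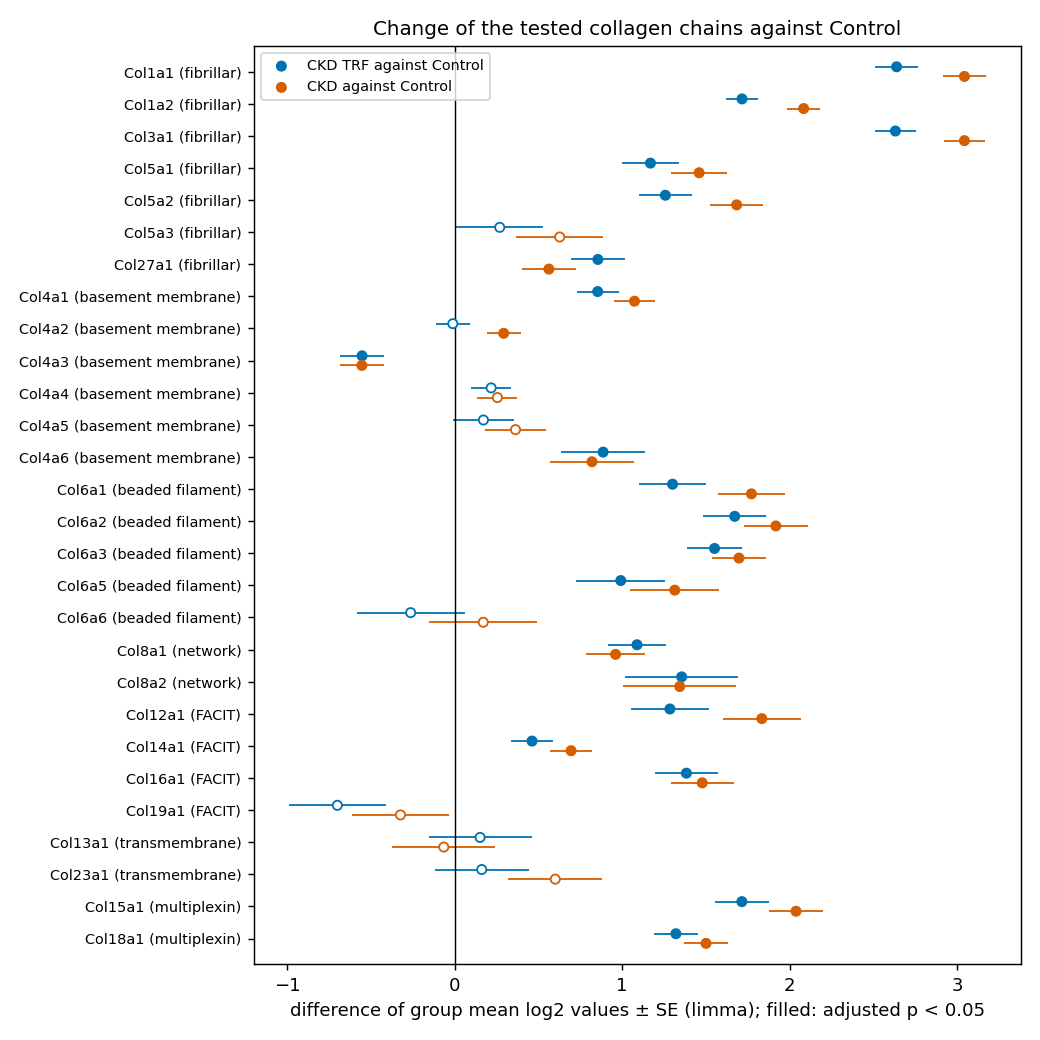
Differences of group mean log2 values ± SE from limma for the 28 tested chains, CKD TRF against Control above CKD against Control in each row, filled where the adjusted p was under 0.05. Col4a3 alone is filled left of 0, and among the chains to the right of 1 in both comparisons are Col1a1, Col1a2, Col3a1, Col5a1, Col5a2, Col6a1, Col6a2, Col6a3, Col8a2, Col12a1, Col15a1, Col16a1 and Col18a1.

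The comparison of CKD TRF with CKD asked whether restricted feeding goes with another collagen level in diseased kidneys. No chain was called, and no gene at all was called among the 13943 (0%), by limma or by limma voom on the recovered reads. At an unadjusted p under 0.05, limma gave 7 chains, Col1a1, Col1a2, Col3a1, Col4a2, Col5a2, Col6a1 and Col12a1, each lower in CKD TRF, against 2.96% of genes lower and 3.42% higher, 890 genes in all (6.38%). Voom gave 12 chains at that level and 1382 genes (9.91%). Of the 28 changes 22 were below 0, against 51.5% of all tested genes, with a median of -0.27 beside -0.01 over all genes and a range of -0.55 to 0.29.

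Libraries of CKD TRF lay wholly below those of CKD for 6 chains, against 2.13% of genes, and wholly above for none, against 2.37%. The 6 were Col1a1, Col1a2, Col3a1, Col4a2, Col5a1 and Col6a2. The last 2 parted narrowly, and neither was among the chains with an unadjusted p under 0.05. Col5a1 stood at 9.46 to 14.8 in CKD TRF, against 15.0 to 17.4 in CKD (-0.29 ± 0.17, limma adjusted p = 0.817). The highest CKD TRF library of Col6a2, at 11.24, lay below the lowest CKD library, at 11.28, by less than the worth of a single read. Col1a2 stood at 344, 308, 329 and 305 scaled reads in CKD TRF, against 422, 461, 385 and 396 in CKD (-0.37 ± 0.10, limma unadjusted p = 0.00111, adjusted 0.705). Col1a1 stood at 91.3, 80.1, 80.9 and 85.0 in CKD TRF, against 120.2, 143, 94.9 and 95.8 in CKD (-0.41 ± 0.13, limma unadjusted p = 0.00445, adjusted 0.705). Both type I chains were thus lower in every CKD TRF library, by a margin that the adjustment over all genes did not pass.

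Col3a1 stood at 198, 191, 129 and 197 in CKD TRF, against 238, 254, 231 and 217 in CKD (-0.41 ± 0.12, limma unadjusted p = 0.00324, adjusted 0.705). CKD TRF 3 was far below the other 3 libraries of its group. Col4a2 stood at 58.8, 61.6, 60.9 and 55.5 in CKD TRF, against 74.0, 75.5, 69.2 and 74.6 in CKD (-0.30 ± 0.10, limma unadjusted p = 0.00659, adjusted 0.705). Its CKD TRF libraries lay within the Control range of 51.8 to 68.7 described above.

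Type VI and FACIT chains had wider spreads beside their gaps. Col6a1 stood at 11.8, 6.50, 10.9 and 11.4 in CKD TRF, against 11.1 to 16.1 in CKD, Col6a2 at 11.2, 9.61, 9.53 and 8.61, against 11.3 to 12.3, and Col6a3 at 45.3, 48.2, 43.3 and 42.9, against 43.0 to 62.5. The changes were -0.47 ± 0.20, -0.25 ± 0.19 and -0.15 ± 0.16, none called (limma adjusted p = 0.738, 0.851 and 0.908). Col12a1 had the lowest change of any tested chain, -0.55 ± 0.23 (limma adjusted p = 0.738), at 6.45, 8.15, 8.11 and 9.46 in CKD TRF with CKD 3 among them. Col14a1 stood at 54.5, 46.7, 47.7 and 48.1 and Col16a1 at 21.5, 19.3, 16.6 and 13.0 in CKD TRF, overlapping CKD (-0.23 ± 0.13 and -0.09 ± 0.19, limma adjusted p = 0.803 and 0.955).

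Col15a1 stood at 48.6, 39.8, 43.1 and 40.2 in CKD TRF and Col18a1 at 143, 153, 100.4 and 122, both overlapping CKD (-0.32 ± 0.16 and -0.18 ± 0.13, limma adjusted p = 0.786 and 0.847). Not every chain leaned downward. Col8a1 stood at 39.3, 35.3, 23.1 and 37.3 in CKD TRF, with 3 libraries above all of CKD and 1 below, and Col8a2 stood at 3.22, 2.05, 2.68 and 2.37 (0.13 ± 0.17 and 0.01 ± 0.34, limma adjusted p = 0.930 and 0.995). Col27a1 had the highest change, 0.29 ± 0.16, at 33.0 ± 7.20 in CKD TRF and 26.4 ± 3.27 in CKD (SD, n = 4 each; limma adjusted p = 0.803).

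Among the other type IV chains, Col4a1 stood at 251, 212, 184 and 187 in CKD TRF (-0.22 ± 0.12), Col4a3 at 21.6, 26.8, 26.9 and 24.7 (0.00 ± 0.13) and Col4a4 at 134, 176, 160.1 and 152 (-0.04 ± 0.12). All 3 overlapped CKD, and none was called (limma adjusted p = 0.811, 0.998 and 0.974). Col4a5 stood at 8.74, 8.61, 11.7 and 9.92 and Col4a6 at 1.07, 1.26, 1.67 and 1.51, also with overlap (-0.19 ± 0.18 and 0.07 ± 0.25, limma adjusted p = 0.889 and 0.979). The log2 ratio of Col4a5 to Col4a6 averaged 2.17 ± 0.08 in CKD TRF and 2.43 ± 0.09 in CKD (SD, n = 4 each; difference -0.26 ± 0.06, exact permutation p = 0.0286, adjusted 0.0918).

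Transmembrane chains stood at 0.931, 3.18, 2.74 and 2.23 for Col13a1 and at 2.72, 3.38, 2.74 and 1.97 for Col23a1 in CKD TRF, both overlapping CKD (0.22 ± 0.31 and -0.44 ± 0.28, limma adjusted p = 0.932 and 0.828). Summed over all chains, CKD TRF averaged 1475 ± 95.2 scaled reads and CKD 1766 ± 128 (SD, n = 4 each), a ratio of 0.84. Sums by class gave 657 ± 38.6 in CKD TRF and 842 ± 72.5 in CKD for fibrillar chains (0.78), and 459 ± 25.8 in CKD TRF and 512 ± 30.5 in CKD for basement membrane chains (0.90). Fibrillar chains held 44.6% ± 0.89 of collagen reads in CKD TRF and 47.6% ± 0.86 in CKD. Fibroblast and mural markers, whose sums also did not overlap between CKD TRF and CKD, had 9 of 9 changes below 0 with none called, and their part was not tested.

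**Figure D5:**
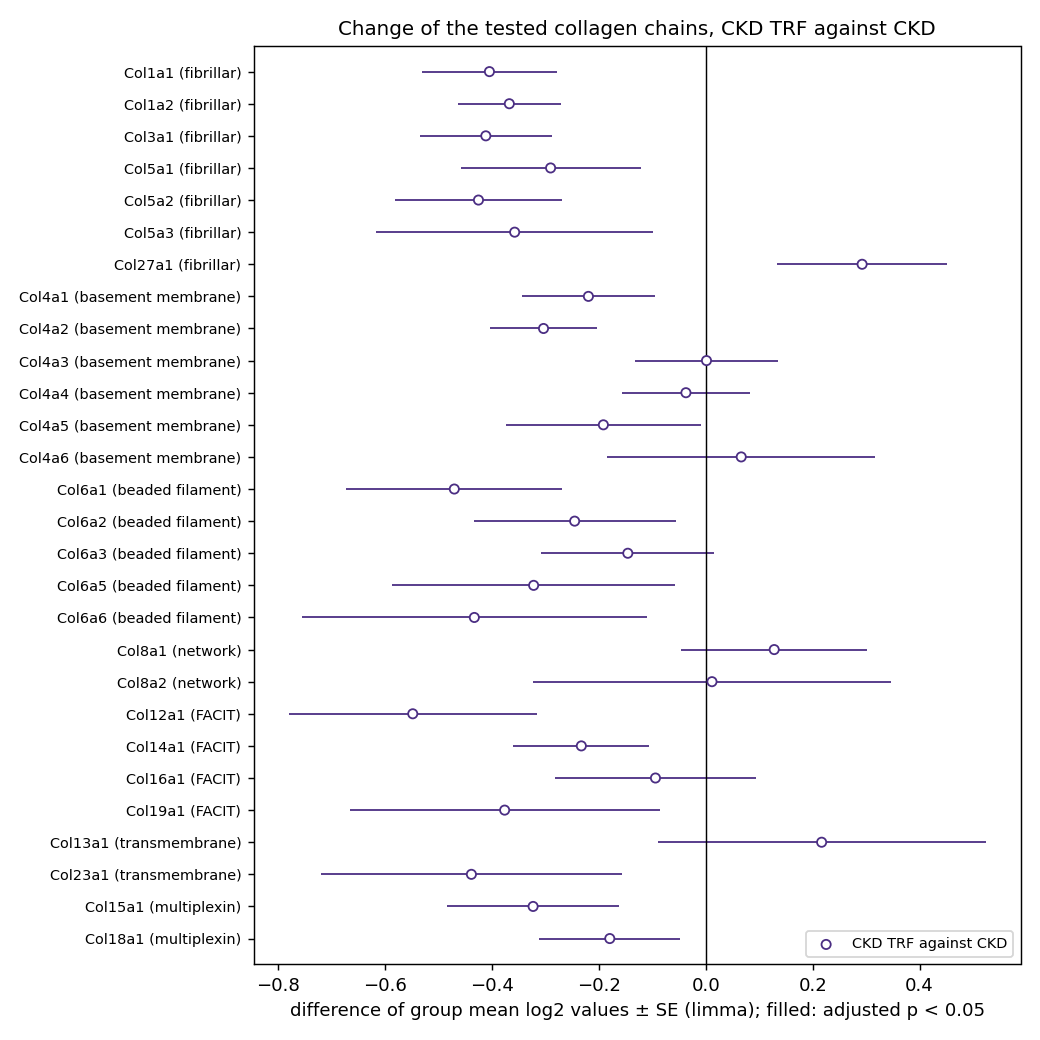
Differences of group mean log2 values ± SE from limma for the 28 tested chains, CKD TRF against CKD, all open since none had an adjusted p under 0.05. Of the 28 points 22 lie below 0, and Col27a1 lies highest at 0.29.

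The comparison of CKD TRF with Control used the same Control libraries as that of CKD. In CKD TRF 19 chains rose, against 19.5% of all tested genes, and 1 fell, against 17.9%, with a median of 1.04 beside 0.01 over all genes. The same number lay wholly above Control (19 chains, against 16.3% of genes) and wholly below (1, against 15.6%). Col4a6, Col6a5 and Col8a2, which passed the filter only through the diseased libraries, are among the 19 in both counts. Col1a1 rose by 2.64 ± 0.13, Col3a1 by 2.63 ± 0.12 and Col1a2 by 1.72 ± 0.10 (limma adjusted p = 1.2e-11, 1.2e-11 and 9.2e-11). Fibrillar sums were 657 ± 38.6 in CKD TRF and 172 ± 10.6 in Control (SD, n = 4 each), a ratio of 3.82.

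Type IV divided here too. Col4a1 rose by 0.85 ± 0.12 and Col4a6 by 0.89 ± 0.25 (limma adjusted p = 2.5e-05 and 0.00864), and Col4a3 fell by 0.55 ± 0.13 (limma adjusted p = 0.00278). Here too the split depended on the processing. Col4a4 was not called (0.22 ± 0.12, limma adjusted p = 0.159), but was called higher with quantile normalization, equal sums, voom and without Control 3. Col4a6 lost its call with quantile normalization and with the fat covariate alone. With the fat and urothelium covariates Col4a1, Col4a3 and Col4a6 all lost theirs. Col4a3 and Col4a6 also lost theirs without the libraries with fat markers, a fit with a single CKD TRF library that carries little weight. Col4a2, called in CKD, was not called here, with a change of -0.01 ± 0.10 (limma adjusted p = 0.949). Its levels averaged 59.2 ± 2.74 in CKD TRF and 59.9 ± 7.01 in Control (SD, n = 4 each). The direct comparison of CKD TRF with CKD, given above, was not called for this chain.

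In the other classes, 4 of 5 type VI, both type VIII, 3 of 4 FACIT and both multiplexin chains rose in CKD TRF against Control. The share of all tested genes that rose was 19.5%. Col12a1 rose by 1.29 ± 0.23, Col14a1 by 0.46 ± 0.13 and Col16a1 by 1.38 ± 0.19 (limma adjusted p = 2.3e-04, 0.00716 and 1.2e-05). Col8a1 rose by 1.09 ± 0.17 and Col15a1 by 1.71 ± 0.16 (limma adjusted p = 6.8e-05 and 1.3e-07). Col19a1 averaged 1.78 ± 0.907 in CKD TRF and 3.50 ± 1.46 in Control and was not called (-0.70 ± 0.29, limma adjusted p = 0.0638), though it passed under 6 alternatives.

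Markers of fat and urothelium also differed between libraries. Fits that leave out libraries or add the marker sums are given below, and beyond these their part in the collagen values was not tested. Adipoq, Plin1 and Cidec, defining genes of fat cells, summed to 26.6, 0.133, 17.3 and 35.7 scaled reads in CKD TRF, 2.72, 61.6, 1.51 and 111 in CKD and at most 0.461 in Control, where Plin1 was at 0. The full list of 9 fat markers summed to 55.7 to 354 in CKD TRF, 87.6 to 781 in CKD and 112 to 241 in Control. Markers of urothelium, the lining of the renal pelvis, summed to 33.1 to 122 in CKD TRF, 29.5 to 142 in CKD and 4.08 to 14.7 in Control. Without the 5 libraries above 10 scaled reads of the 3 fat genes, an exclusion chosen after their values were seen, 17 chains rose and none fell in CKD, and 13 rose and none fell in the single CKD TRF library left, which is assumed to vary like the others. With both marker sums as covariates, 12 rose and none fell in CKD against Control, and 4 rose and none fell in CKD TRF against Control. The shares of all tested genes called in these fits are not given here, so the smaller counts are not read as particular to collagen chains. The urothelium sums part the diseased groups from Control, so that this covariate and disease cannot be told apart.

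Markers of the labelled tissue were present: 5 proximal tubule genes with Umod of the thick ascending limb summed to 6265 to 7424 scaled reads in CKD TRF, 5598 to 6307 in CKD and 5881 to 8424 in Control. Of these 6 genes 2 fell and 1 rose in both comparisons with Control. Of all tested genes 21.8% fell and 23.6% rose in CKD, and 17.9% fell and 19.5% rose in CKD TRF. These counts are not read as particular to the tubule genes. Slc5a2, a glucose transporter of the proximal tubule, averaged 233 ± 35.6 in CKD TRF, 169 ± 41.4 in CKD and 360.0 ± 22.9 in Control, and Slc22a6, an organic anion transporter there, averaged 699 ± 121 in CKD TRF, 617 ± 54.2 in CKD and 1168 ± 143 in Control (SD, n = 4 each). They fell by 1.11 ± 0.14 and 0.91 ± 0.13 in CKD (limma adjusted p = 2.2e-06 and 8.1e-06) and by 0.64 ± 0.14 and 0.75 ± 0.13 in CKD TRF against Control (0.00104 and 1.1e-04). Slc34a1, Lrp2 and Cubn were not called in either comparison, and Umod rose by 0.43 ± 0.16 in CKD and 0.54 ± 0.16 in CKD TRF (0.0354 and 0.0123). Their part in the collagen values was not tested. Cartilage and bone markers summed to at most 0.263 in any library, with Matn1 and Matn3 at 0, and skeletal muscle markers to 0.775 to 2.01 in CKD TRF, 0.195 to 2.24 in CKD and 2.72 to 9.49 in Control. Of the chains known mainly from cartilage, Col27a1 was present in every library and rose, as given above. Col2a1 and Col9a2 were at 0 in all 12 libraries, and Col9a1, Col9a3 and Col11a2 each had reads in 1 library alone. Col10a1 and Col11a1, also chains of cartilage, had reads in more libraries and are given with the low chains further on. Col22a1, which is not counted among the cartilage chains, had reads in 1 library alone.

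Genes that make and assemble collagen moved in part. Of 34 tested of 38, 16 rose in CKD and 2 fell, against 23.6% and 21.8% of all tested genes, with a median change of 0.35 beside 0.02 over all genes. In CKD TRF against Control 14 rose and 2 fell, against 19.5% and 17.9% of all tested genes. Lox, which starts the crosslinks between fibril chains, averaged 14.5 ± 3.41 in CKD TRF, 19.0 ± 4.11 in CKD and 1.88 ± 0.238 in Control (SD, n = 4 each), a rise of 2.78 ± 0.19 in CKD (limma adjusted p = 1.1e-09). Adamts2, which removes the N-terminal propeptide of fibrillar procollagen, averaged 15.0 ± 3.99 in CKD TRF, 18.5 ± 3.66 in CKD and 2.54 ± 0.512 in Control, a rise of 2.46 ± 0.20 (8.2e-09). Loxl1, a relative of Lox that also acts on elastin, rose by 1.57 ± 0.16 (2.1e-07). The 2 that fell in CKD were Crtap, part of the prolyl 3-hydroxylation complex, by 0.43 ± 0.14, and Sec23a, of the coat that carries procollagen out of the endoplasmic reticulum, by 0.35 ± 0.12 (limma adjusted p = 0.0167 and 0.0241).

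Among receptors and binding proteins, 10 of 12 tested rose in CKD and none fell, against 23.6% and 21.8% of all tested genes, with a median change of 0.94 beside 0.02 over all genes. In CKD TRF against Control 8 rose and none fell, against 19.5% and 17.9%. Cd44, known best as a hyaluronan receptor and also a collagen binder, averaged 16.4 ± 2.71 in CKD TRF, 24.7 ± 3.17 in CKD and 2.12 ± 0.887 in Control (SD, n = 4 each), a rise of 3.07 ± 0.19 in CKD (limma adjusted p = 3.7e-10). Antxr1, an anthrax toxin receptor that binds collagen, rose by 1.89 ± 0.25, and Adgrg6, an adhesion receptor that binds type IV collagen, by 1.77 ± 0.25 (5.7e-06 and 1.2e-05).

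Genes of collagen breakdown and its inhibitors included 8 of 13 tested that rose in CKD and 1 that fell, against 23.6% and 21.8% of all tested genes, with a median change of 1.19 beside 0.02 over all genes. In CKD TRF against Control 7 rose and 1 fell, against 19.5% and 17.9%. Timp1, a secreted inhibitor of the metalloproteinases, averaged 6.03 ± 1.50 in CKD TRF, 9.07 ± 1.97 in CKD and 0.544 ± 0.456 in Control (SD, n = 4 each) and rose by 2.74 ± 0.25 in CKD (limma adjusted p = 4.8e-08). Mmp2, a gelatinase that also cuts type IV collagen, rose by 2.52 ± 0.24, and Mmp3, stromelysin, by 2.50 ± 0.23 (7.5e-08 and 6.6e-08). Pepd, which splits the proline dipeptides left by collagen breakdown, fell by 0.39 ± 0.11 (0.00715). No gene of the 3 lists was called between CKD TRF and CKD.

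The remaining 16 chains were too low to be tested and are given as levels only. Just outside the limit were Col26a1 and Col11a1, with mean log2 values of 0.64 and 0.63, and just inside were Col6a5 and Col6a6, at 0.80 and 0.81. Col11a1, a fibrillar chain of cartilage, ran from 0.263 to 1.07 in CKD TRF, 0.522 to 1.23 in CKD and 0.204 to 0.461 in Control. Col10a1 stood at 0.860, 0, 0 and 0.394 in CKD TRF, 1.04, 1.01, 1.33 and 0.131 in CKD and 0.307, 0, 0.170 and 0.0913 in Control. Its 3′ end overlaps Nt5dc1 on the other strand. Col24a1, a fibrillar chain known from bone and cornea, stood at 0.574, 0.530, 0.179 and 0.591 in CKD TRF, 0.260, 0.0563, 0.174 and 0 in CKD and 0.307, 0, 0.170 and 0.183 in Control. Col25a1 reached 1.91 in CKD 2, and the remaining untested chains, Col6a4, Col7a1, Col17a1, Col20a1 and Col28a1, stayed at or below 0.645 in every library.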

How the data were processed

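The authors deposited 1 table per library with a log2 value for each of 23282 entries; no header names the unit, and the values read as log2 of scaled reads plus 1. Mouse genome build mm10, Bowtie2 and bedtools are named without versions, per the submitters' processing notes, and 500 ng of total RNA entered each library, per the labels' protocols. The scaling and the strand setting of the counting are not given in the sources used here. The worth of 1 read was recovered in each library: of the values below 20 scaled reads, 98.3% to 100% came within 0.1 of whole reads. Such limits cover counting error only.

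Of the 35 symbols with more than 1 entry, 1 entry was kept, and 4488 symbols were above 0 in no library. Genes were tested with limma 3.58.1 (R 4.3.3), with a mean per group over the 12 libraries and a prior spread that followed the mean level. The p-values were two-sided and Benjamini-Hochberg adjusted over 13943 genes. The fit was tested on simulated data. Ratios of 2 chains were compared by exact permutation. Alternatives were other filters, added constants, normalizations, tests, covariates and sets of libraries.

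Values in every library are given for all 6 type IV chains and for the 3 tested chains with the highest mean scaled reads in each other class, a rule of choice and not a comparison of levels, and 3 genes are named per related list, those called with the largest change in CKD. Col5a1, Col5a2, Col5a3, Col27a1, Col6a5, Col6a6, Col19a1, the low chains, the genes of the related lists that fell (Crtap, Sec23a and Pepd), Slc19a1 and the marker genes were named beside the rule, some after their values were seen. Collagen classes were set by hand from textbook knowledge. The members, classes and lists were chosen with earlier results of these data known. Genes were placed with the GENCODE M21 annotation of the same build, and start regions were taken from RefSeq (GRCm38.p6).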

Additional observations from a re-analysis of the deposited data

Results flagged for a closer look

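In 6 of 99 groups of 4 libraries, over the 28 tested chains and the class sums, 1 library stood apart from the other 3 by more than Dixon's 95% critical value for the gap over the range. Chance flags about 1 in 20 groups, which is close to this number. Col3a1 was at 129 scaled reads in CKD TRF 3, with the other 3 CKD TRF libraries at 191 to 198. Col6a1 was at 6.50 in CKD TRF 2, with the others at 10.9 to 11.8. Col4a3 was at 30.4 in CKD 1, with the others at 22.9 to 23.8, and Col19a1 was at 1.34 in CKD 2, with the others at 2.79 to 3.02. In Control, Col6a5 was at 0.0913 in Control 4 and at 0 in the other 3 libraries, and Col8a2 was at 0 in Control 2, with the others at 0.510 to 0.595.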

How the results depend on the processing

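No called chain changed direction under any alternative. In CKD against Control 12 of the 21 calls held under all alternatives (Col1a1, Col1a2, Col3a1, Col4a1, Col5a2, Col6a1, Col6a2, Col6a3, Col8a1, Col12a1, Col15a1 and Col18a1), and in CKD TRF against Control 4 of 20 did (Col1a1, Col1a2, Col3a1 and Col8a1). Leaving aside the fit with fat and urothelium covariates these were 17 and 13. That fit gave 12 chains higher and 0 lower in CKD, and 4 higher and 0 lower in CKD TRF, both against Control. The share of all tested genes called in it is not given here, so the loss of calls is not read as particular to collagen chains. The count of lower chains in CKD was also 0 with equal sums, voom and without the libraries holding fat markers (added after seeing the data), and that in CKD TRF was 0 in the last. It was 2 with median centring, quantile normalization and sample weights, since Col19a1 passed, and 1 to 2 with 1 library left out (2 without Control 2, CKD TRF 1 or CKD TRF 2). With 1 library left out, 19 to 21 chains were higher in CKD and 19 to 20 in CKD TRF. Planned exclusion of libraries above the highest Control in fat markers left no CKD library and was not run.

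Equal sums moved the median of all genes from 0.02 to 0.23 in CKD against Control (voom 0.25, median centring -0.08) and to 0.14 in CKD TRF against Control. In CKD TRF against CKD that median moved from -0.01 to -0.08 (voom -0.09). With equal sums, the log2 ratio of class sums to Control was 1.60 in CKD and 1.25 in CKD TRF for all chains. It was 2.52 and 2.08 for fibrillar chains, and 0.75 for basement membrane and 1.16 for FACIT chains in CKD. These values are on the log2 scale, unlike the ratios of means given above, and each was larger than with the deposited scaling. Median centring gave 4 lower genes of collagen making and 1 lower receptor in CKD TRF against Control, and 2 lower genes of breakdown in CKD against Control; quantile normalization gave 0 lower genes of breakdown in CKD TRF. The cause was not tested. Low chains followed the added constant: with 0.25 in place of 1, Col6a5 changed by 2.70, Col4a6 by 1.57 and Col8a2 by 2.11 in CKD against Control, and voom gave 4.86, 2.63 and 3.02. Of uncalled chains, 5 of 7 (CKD against Control), 9 of 28 (CKD TRF against CKD) and 7 of 8 (CKD TRF against Control) took the other sign somewhere, none past the threshold.

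Same-numbered libraries did not vary together over all tested genes (r from -0.18 to 0.11, 1 of 12 pairs over 0.1), so the main fit used no pairing. With 4 libraries in each group, a weak shared effect could go unseen. With a replicate block, 21 chains were higher and 1 lower in CKD, 19 higher and 1 lower in CKD TRF, both against Control, and 0 differed between CKD TRF and CKD. At this depth a level at or below the worth of 3 reads is not told from 0.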
